A study of Mus musculus with 14 samples.

Results

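Wdr5, Rbbp5, Ash2l and Dpy30 encode the WRAD core, the 4 proteins that every mammalian H3K4 methyltransferase of the SET1/MLL family holds beside its own catalytic subunit. Their mRNA was followed in 14 libraries of mouse oocytes. The members were chosen by symbol: each of the 4 matched 1 row in each of the 2 deposited tables, of 35389 rows in the first and 35341 in the second, and each passed the filter on low values in both. Dpy30 was set against the other three by the rule that chose the group.

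The first table held NSN and SN oocytes, in the field's usual sense those with a non-surrounded and a surrounded nucleolus, the earlier and the later chromatin state. In each state, oocytes overexpressed either Rnaseh1, whose product degrades the RNA strand of RNA-DNA hybrids and so removes R-loops, or the fluorescent protein mCherry as the control. The second table, called the rescue set in its labels, held oocytes that overexpressed mCherry, Rnaseh1, or both Rnaseh1 and Supt6, which encodes the elongation factor SPT6. Its labels do not give the chromatin state. Each of the 7 groups had 2 libraries, made from polyadenylated RNA by reverse transcription and cDNA amplification. Strain, age, the number of oocytes per library and the way the genes were delivered are not given in the sources used here, nor whether the paired libraries came from separate animals, so p-values measure the spread between these libraries, which may be technical.

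WDR5, RBBP5 and ASH2L bind the catalytic subunit and one another and bring the otherwise weak enzyme to full activity. DPY30, a small protein, joins as a dimer through ASH2L. The resulting complexes place methyl groups on lysine 4 of histone H3, a mark of promoters and enhancers that growing oocytes also lay down over broad domains. WDR5 is used by further assemblies as well, among them the NSL and ATAC histone acetyltransferase complexes.

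In the GENCODE annotation of GRCm38, Wdr5 (ENSMUSG00000026917.15) lay on the plus strand of chromosome 2, chr2:27515157-27536535, and Rbbp5 (ENSMUSG00000026439.14) on the plus strand of chromosome 1, chr1:132477365-132505659. Ash2l (ENSMUSG00000031575.18) lay on the minus strand of chromosome 8, chr8:25815996-25847694, and Dpy30 (ENSMUSG00000024067.14) on the minus strand of chromosome 17, chr17:74299474-74323944. All 4 are protein-coding genes, and none overlapped another annotated gene. The median coding transcript of Dpy30 was 658 bases long with 46.8% GC, the shortest and the least GC-rich of the group. Wdr5 had 1961 bases and 50.6% GC, Rbbp5 2217 bases and 48.9%, and Ash2l 2300 bases and 48.0%. Processed pseudogenes carried stretches close to 3 of the mRNAs: Gm11977 was 93.2% identical to Rbbp5 over 1288 bases, Gm2059 91.5% identical to Dpy30 over 294 bases, and Gm13462 90.1% identical to Ash2l over 974 bases. The values of these 3 members are uncertain as far as reads could be shared with those copies. Wdr5 had no such copy above 90% identity over at least 250 bases.

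The RefSeq promoter sequences (GRCm38.p6) of 3 members are shown because the group moved together in part. Ash2l had no entry among the promoter sequences used. The libraries differed by the base composition of transcripts, and a relation to that of promoters was not tested. Each run is the 200 bases before the outermost start of the main cluster of transcript starts, 5′ to 3′ on the strand of the gene, with CG dinucleotides in capitals (a CG reads the same on both strands).
Wdr5 (chr2:27514947-27515146, plus strand): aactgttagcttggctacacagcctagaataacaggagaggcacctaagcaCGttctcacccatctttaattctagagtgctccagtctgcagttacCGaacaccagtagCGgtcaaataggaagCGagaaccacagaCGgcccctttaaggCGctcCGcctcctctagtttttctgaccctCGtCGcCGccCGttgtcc
Rbbp5 (chr1:132477148-132477347, plus strand): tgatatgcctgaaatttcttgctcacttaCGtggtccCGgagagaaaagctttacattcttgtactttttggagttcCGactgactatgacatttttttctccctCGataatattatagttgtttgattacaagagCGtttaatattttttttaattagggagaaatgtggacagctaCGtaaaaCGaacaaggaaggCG
Dpy30 (chr17:74316464-74316663, minus strand): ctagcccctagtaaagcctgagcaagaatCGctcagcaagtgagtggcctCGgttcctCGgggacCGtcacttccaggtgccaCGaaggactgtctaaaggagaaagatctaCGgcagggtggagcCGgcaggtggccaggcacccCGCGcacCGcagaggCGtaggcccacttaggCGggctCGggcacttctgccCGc
The Dpy30 window held 14 CG and was 64.0% G or C. The Wdr5 window held 11 CG and was 53.0% G or C, and the Rbbp5 window 8 CG and 36.5%. Windows of the same length directly before each of 32851 RefSeq starts held a median of 5 CG. Of them, 24.8% had at least as many as Dpy30, 31.7% as many as Wdr5 and 39.4% as many as Rbbp5. The windows of the members were placed before the outermost start of a cluster, so the placement differs and the shares are approximate. Dpy30 and Wdr5 each had 1 further annotated start outside this cluster.

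Before the results, the state of the libraries has to be given. The oocyte marker list was summed in TPM, the unit of both tables, a share of all mRNA corrected for transcript length. Its 12 genes summed to between 22529 and 34857 TPM in the first table. In the rescue set, where H1foo was not counted, 11 genes summed to between 18091 and 24141 TPM. None of the measured genes was at 0. Granulosa or cumulus markers summed to between 26.4 and 56.8 TPM, of which Cyp19a1 made up most (13.0 to 46.1 TPM), followed by Nr5a2 (up to 8.19) and Kitl (up to 6.64), while the defining genes Amh and Foxl2 were at 0 in all libraries. Of the 4 endothelial and stromal markers, which summed to between 2.81 and 32.0 TPM, Pecam1 made up nearly all. In the first table, NSN Rnaseh1 replicate 2 and SN mCherry replicate 2 stood far from the rest, at 113 and -91.0 on the first principal component (56.8% of the variance) against -40.7 to 39.9 for the other 6. The rank correlation across genes between a library's deviation from the table mean and transcript GC content was -0.41 and 0.49 in these libraries and between -0.36 and 0.32 in the others. It was -0.46 and -0.50 in the rescue libraries with Rnaseh1, 0.49 in both with mCherry, and 0.33 and 0.28 with Rnaseh1 and Supt6. The same correlation with transcript length was -0.115 and -0.11 in the rescue libraries with Rnaseh1, and 0.11 and 0.19 with mCherry. With Rnaseh1 and Supt6 the length correlation was -0.02 and 0.03, and in the first table it lay between -0.15 and 0.08. Sequencing depth is unknown, since TPM keeps no counts.

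Rnaseh1 checked the labels of overexpression, while the NSN and SN labels were not checked. It stood at 745 and 229 TPM in NSN Rnaseh1 libraries against 137 and 108 in their controls, at 1361 and 1083 in SN Rnaseh1 against 81.0 and 131, and in the rescue set at 1243 and 625 with Rnaseh1 and 2270 and 2017 with Rnaseh1 and Supt6 against 125 and 114. Supt6 stood at 28.2 and 21.0 TPM where it was overexpressed, against 3.28 and 3.14 with mCherry and 3.01 and 2.55 with Rnaseh1 alone. The NSN Rnaseh1 library with the lower Rnaseh1 level, replicate 2, is the one that stood apart. Whether that library and SN mCherry replicate 2 hold the chromatin state of their labels was not tested.

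The 4 mRNAs were far from equal in amount. Dpy30 was the most abundant in every library, with a mean of 1232 TPM in the first table, above 99.0% of the 12736 genes tested there, and 843 TPM in the rescue set, above 98.5% of 12859. Wdr5 came second by its mean, with 55.5 TPM in the first table and 116 TPM in the rescue set. Rbbp5 (15.5 and 24.7 TPM) and Ash2l (18.3 and 15.2 TPM) lay lower, and their order turned between the tables and between libraries: the ratio of Rbbp5 to Ash2l TPM ran from 0.50 to 1.99 in the first table and from 1.03 to 2.61 in the rescue set. Wdr5 lay below Rbbp5 in 1 library only, NSN Rnaseh1 replicate 2, where the ratio of Wdr5 to Rbbp5 was 0.97. Over all other libraries of that table and of the rescue set it reached up to 6.56. Wdr5b, the intronless paralog of Wdr5, was nearly absent, at 0 to 2.05 TPM over all libraries. Levels are not set across the tables, which were normalised separately.

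**Figure D1:**
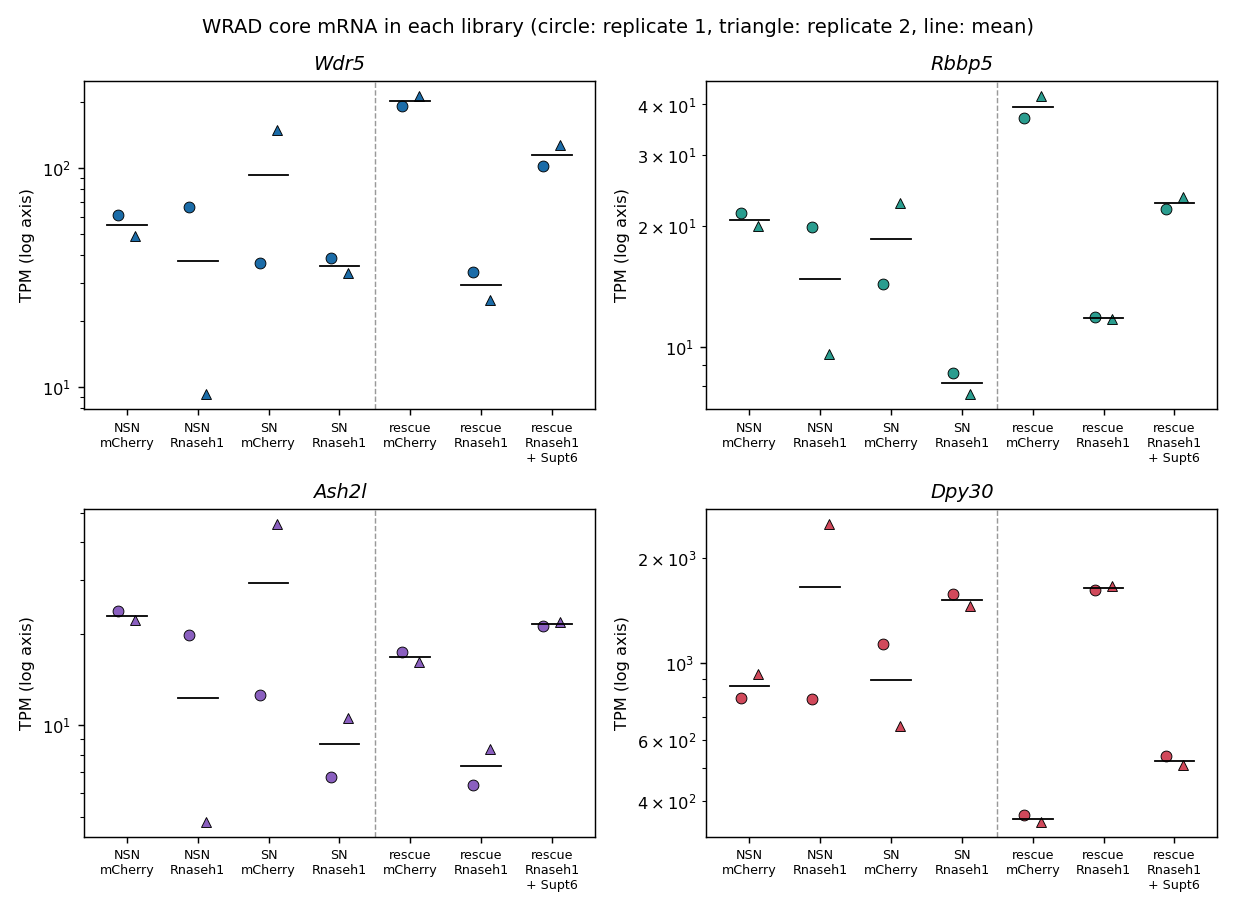
TPM of Wdr5, Rbbp5, Ash2l and Dpy30 (log axes) in each of the 14 libraries; circles are replicate 1, triangles replicate 2, and lines the group means, with the rescue set right of the dashed line. In the rescue set the Rnaseh1 libraries lie lowest for Wdr5, Rbbp5 and Ash2l and highest for Dpy30, at 1625 and 1669 TPM.

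The rescue comparison of Rnaseh1 with mCherry asks what overexpression of this R-loop-degrading enzyme does to the transcriptome; R-loops themselves were not measured in these libraries. Here the core split: the scaffold genes Wdr5, Rbbp5 and Ash2l fell and Dpy30 rose. Wdr5, which holds the histone tail and the catalytic subunit, stood at 193 and 214 TPM with mCherry and at 33.4 and 24.99 with Rnaseh1. The libraries of these groups did not overlap for any of the 4 genes, nor did they for 54.8% of all genes on the lower and 26.4% on the higher side. Wdr5 fell by 2.77 on the log2(TPM + 1) scale (SE 0.17, limma adjusted p = 9.5e-06), or 6.82-fold.

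Rbbp5, which bridges WDR5 and ASH2L, stood at 36.9 and 42.0 TPM with mCherry and at 11.9 and 11.7 with Rnaseh1. It fell by 1.66 (SE 0.14, limma adjusted p = 5.2e-05). Ash2l, which with RBBP5 activates the catalytic domain, stood at 17.4 and 16.1 TPM with mCherry and at 6.35 and 8.36 with Rnaseh1. It fell by 1.096 (SE 0.18, limma adjusted p = 0.0015), the smallest change of the group, and this call ended under quantile normalization (-0.31, adjusted p = 0.19). Dpy30 stood at 365 and 350 TPM with mCherry and at 1625 and 1669 with Rnaseh1. It rose by 2.20 (SE 0.07, limma adjusted p = 8.8e-07), or 4.60-fold. In bulk libraries, fewer cells of a kind and less RNA per cell cannot be told apart, and TPM gives a share of the mRNA, not an amount.

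All 4 genes were thus called, in a comparison that called 66.5% of the 12859 genes tested, 20.3% as higher and 46.2% as lower. By the size of the difference, Dpy30 lay above 97.7% of genes tested, and Wdr5 above 6.45%, Rbbp5 above 20.5% and Ash2l above 33.5%. The median of all genes was -0.52, and centring each library on its median took it to 0.06. That scaling took the share of higher calls from 30.5% to 52.4%, quantile normalization took it to 51.6% and removal of a GC trend to 48.2%. Relative to the median of all genes, the differences were -2.25 for Wdr5, -1.14 for Rbbp5, -0.57 for Ash2l and 2.72 for Dpy30, and the directions of the 4 genes held under each of these scalings.

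**Figure D2:**
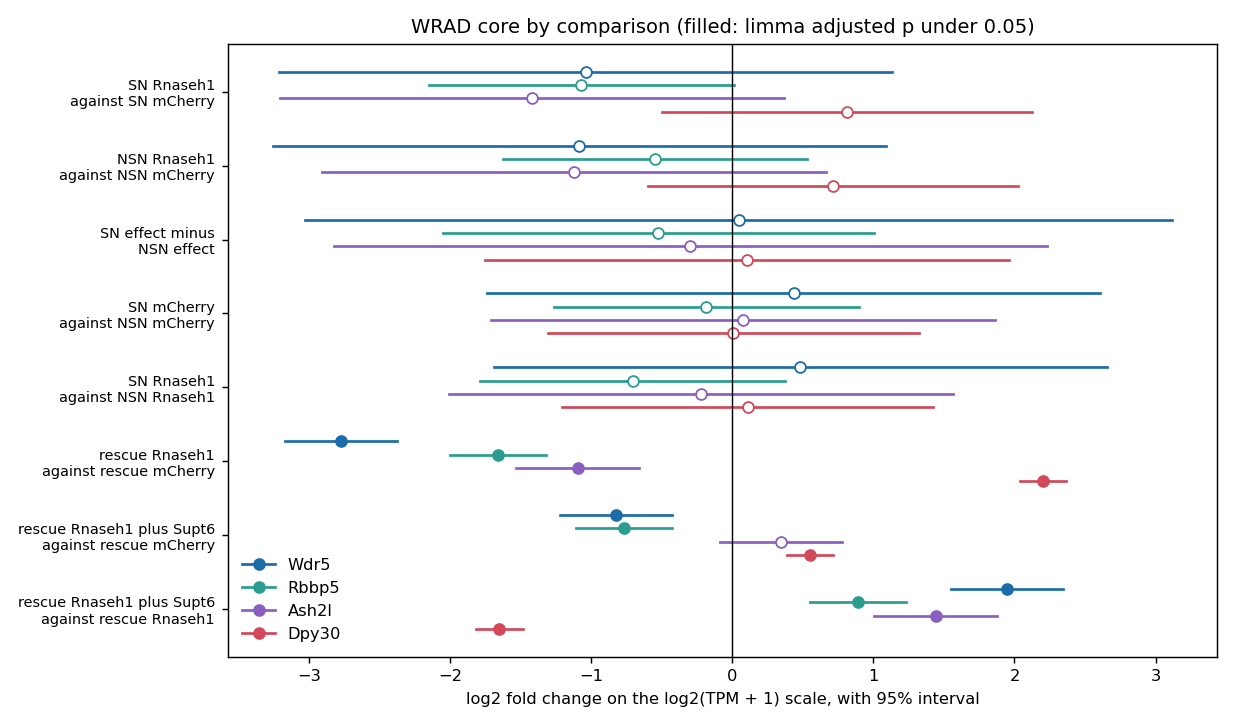
Log2 fold change on the log2(TPM + 1) scale with its 95% interval for each core gene in 8 comparisons; filled points passed a limma adjusted p of 0.05. Passing points occur in the 3 rescue comparisons only, where Dpy30 lies at 2.20, 0.55 and -1.65; the wide intervals of the NSN and SN comparisons all include 0.

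The differences ran with the GC content of transcripts, and the core genes are placed against genes of like composition. In the tenth of genes that held Dpy30 the median log2 fold change was -0.22, in that of Rbbp5 and Ash2l -0.44 and in that of Wdr5 -0.62, within a range from 0.50 in the tenth with the lowest GC to -1.63 in the tenth with the highest. After removal of a smooth GC trend from each library, Wdr5 stood at -2.14, Rbbp5 at -1.26, Ash2l at -0.80 and Dpy30 at 2.34, all past the threshold. With GC and length trends removed together, an alternative chosen after the data were seen, the values were -1.87, -0.98, -0.54 and 1.74, again all past it. Among marker genes, the endothelial and stromal list summed to 30.0 to 32.0 TPM with mCherry, 6 to 9.26 with Rnaseh1 and 29.5 to 31.5 with Rnaseh1 and Supt6. Pecam1 carried this sum (5.52 to 31.8 TPM over the 6 libraries), Cdh5 was at 0 in all of them, and Col1a1 and Pdgfra reached 0.02 and 0.48. The immune list summed to 2.89 to 4.21, 0 to 0.10 and 1.90 to 2.47 TPM in the same order, nearly all of it Cd68 (0 to 4.21), with Ptprc at up to 0.05 and Adgre1 and Cd3e at 0 throughout. The part of these in the results was not tested.

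**Figure D3:**
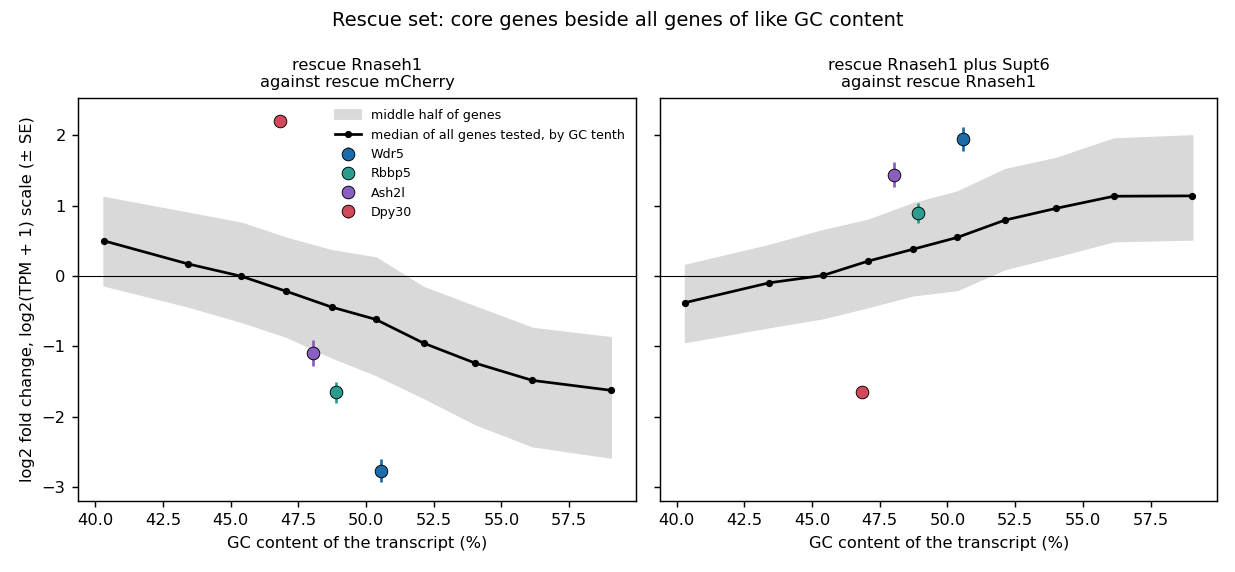
Log2 fold change against transcript GC content in the rescue set, for Rnaseh1 against mCherry (left) and Rnaseh1 plus Supt6 against Rnaseh1 (right); the black line gives the median and the grey band the quartiles of all genes tested in 10 bins of GC content, and coloured points the core genes ± SE. In both panels Dpy30 lies outside the band, on the opposite side of the black line to the other 3. The GC content of the 4 runs from 46.8% to 50.6%.

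When Supt6 was overexpressed along with Rnaseh1, all 4 genes were again called against Rnaseh1 alone, each in the opposite direction. This comparison shares its Rnaseh1 libraries with the one above, so opposite signs are no independent evidence. Rnaseh1 itself was also higher with Supt6 than with Rnaseh1 alone (1.28, SE 0.28, limma adjusted p = 0.0062). The addition of Supt6 and the level of Rnaseh1 therefore cannot be told apart here. Wdr5 stood at 103 and 127 TPM with Rnaseh1 and Supt6 and rose by 1.95 (SE 0.17, limma adjusted p = 6.9e-05). Ash2l stood at 21.2 and 21.9 TPM and rose by 1.44 (SE 0.18, limma adjusted p = 0.00047).

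Rbbp5 stood at 22.0 and 23.5 TPM and rose by 0.89 (SE 0.14, limma adjusted p = 0.0015). This call ended under quantile normalization (0.27, adjusted p = 0.12) and with GC and length trends removed (0.30, adjusted p = 0.10). Dpy30 stood at 540 and 509 TPM and fell by 1.65 (SE 0.07, limma adjusted p = 3.3e-06), or 3.14-fold. The libraries did not overlap for any of the 4, nor for 54.5% of all genes on the higher and 25.5% on the lower side. The comparison called 58.9% of all genes, 41.6% as higher and 17.4% as lower, around a median of 0.44. After median centring 46.6% of its calls were higher, against 70.5% with TPM as deposited.

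Against mCherry, the libraries with both genes overexpressed had 3 of the 4 genes past the threshold. Wdr5 fell by 0.82 (SE 0.17, limma adjusted p = 0.024) and Rbbp5 by 0.77 (SE 0.14, limma adjusted p = 0.018), while Dpy30 rose by 0.55 (SE 0.07, limma adjusted p = 0.0061). Ash2l stood at 0.35 (SE 0.18, 95% interval -0.09 to 0.78, limma adjusted p = 0.28) and did not pass, although both libraries lay above both controls, as for 26.8% of all genes. These 3 calls of 4 compare with 13.3% of all genes, 5.71% higher and 7.6% lower. They rested on the full set of libraries: without either library with Supt6, or without mCherry replicate 2, none of the 4 passed, and without mCherry replicate 1 Dpy30 alone did (0.58, adjusted p = 0.041). The log2 values moved little in these fits, those of Wdr5 from -0.98 to -0.67, those of Rbbp5 from -0.86 to -0.68 and those of Dpy30 from 0.51 to 0.59, while the number of genes called dropped from 1711 to between 85 and 320. Without a filter on low values, the Wdr5 call also ended (adjusted p = 0.071).

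The contrast of Dpy30 with the other three was also taken inside each library, where a scaling factor common to all genes largely cancels. The log2(TPM + 1) of Dpy30 exceeded the mean of Wdr5, Rbbp5 and Ash2l by 2.83 and 2.698 in the rescue libraries with mCherry, by 6.78 and 6.84 with Rnaseh1 and by 3.85 and 3.62 with Rnaseh1 and Supt6. The 3 groups did not overlap. Single genes often did not either: with Rnaseh1, 54.8% lay lower and 26.4% higher than with mCherry. With Supt6 added, 54.5% lay higher and 25.5% lower than with Rnaseh1 alone, and 26.8% higher than with mCherry. As a plain TPM ratio, Dpy30 amounted to 1.48 and 1.29 times the summed TPM of the other three with mCherry, to 31.5 and 37.0 times with Rnaseh1, and to 3.70 and 2.95 times with both genes. The difference between groups was 4.04 for Rnaseh1 against mCherry, -3.08 for the addition of Supt6 and 0.97 for both genes against mCherry. It is given with no test, since the members were chosen with results known. Under quantile normalization the first of these was 3.20, with a GC trend removed 3.74, and with GC and length trends removed 2.87.

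**Figure D4:**
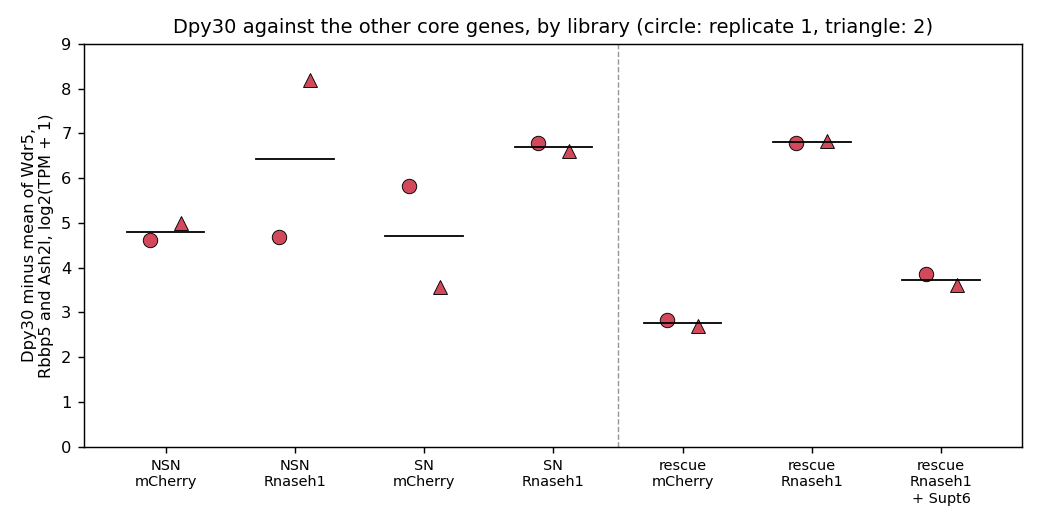
Dpy30 minus the mean of Wdr5, Rbbp5 and Ash2l, in log2(TPM + 1), for each library (circles replicate 1, triangles replicate 2, lines group means). In the rescue set the groups lie apart at means of 2.77, 6.81 and 3.73; in the NSN and SN set, NSN Rnaseh1 spans 4.68 to 8.20 and SN mCherry 3.58 to 5.83.

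In SN oocytes the values had the same signs as in the rescue set but did not pass the test, in a comparison that called 0 of 12736 genes (859, or 6.74%, had an unadjusted limma p under 0.05). Wdr5 stood at 36.7 and 150 TPM with mCherry and at 38.7 and 33.0 with Rnaseh1. The libraries overlapped, the high control being the replicate that stood apart. Its log2 fold change was -1.04 (SE 0.93, limma adjusted p = 0.66). Without SN mCherry replicate 2 it was -0.04.

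Rbbp5 stood at 14.3 and 22.8 TPM with mCherry and at 8.59 and 7.63 with Rnaseh1 in SN oocytes (-1.07, SE 0.46, limma adjusted p = 0.61). Ash2l stood at 12.6 and 46.0 TPM with mCherry and at 6.74 and 10.6 with Rnaseh1 (-1.42, SE 0.76, limma adjusted p = 0.61). Both Rnaseh1 libraries lay below both controls for these genes, as they did for 31.7% of all genes. Dpy30 stood at 1132 and 658 TPM with mCherry and at 1583 and 1456 with Rnaseh1 (0.81, SE 0.56, limma adjusted p = 0.61). Here both Rnaseh1 libraries lay above both controls, as for 18.9% of all genes. Without SN mCherry replicate 2 the values were -0.75 for Rbbp5, -0.52 for Ash2l and 0.42 for Dpy30. The 95% intervals, -2.15 to 0.01 for Rbbp5, -3.20 to 0.37 for Ash2l, -3.21 to 1.13 for Wdr5 and -0.50 to 2.13 for Dpy30 were wide, and all of them included 0.

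In NSN oocytes the pattern of the core rested on 1 library. Dpy30 stood at 795 and 927 TPM with mCherry and at 787 and 2517 with Rnaseh1, and Wdr5 at 61.4 and 48.9 against 66.3 and 9.29. The Rnaseh1 library at the level of the controls was replicate 1, and the one with the extreme values was replicate 2. Rbbp5 (21.5 and 19.9 TPM with mCherry, 19.8 and 9.58 with Rnaseh1) and Ash2l (23.7 and 22.2 against 19.8 and 4.82) showed the same split within the group. Both Rnaseh1 libraries lay below both controls for Rbbp5 and Ash2l, as for 22.6% of all genes.

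The log2 fold changes in NSN oocytes were -1.08 for Wdr5, -0.55 for Rbbp5, -1.12 for Ash2l and 0.71 for Dpy30 (SE 0.93, 0.46, 0.76 and 0.56), each with a limma adjusted p of 0.76. The comparison called 0 genes, and 353 (2.77%) had an unadjusted p under 0.05. Without replicate 2 of NSN Rnaseh1 they were 0.27, -0.06, -0.20 and -0.12. Without replicate 1, Dpy30 stood at 1.55 with a limma adjusted p of 0.0496 and 1152 genes were called, the lone library being assumed to vary like the other groups. The contrast of Dpy30 with the other three was 4.61 and 5.01 in the NSN mCherry libraries and 4.68 and 8.20 with Rnaseh1, and 5.83 and 3.58 in the SN mCherry libraries and 6.79 and 6.60 with Rnaseh1.

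The difference between the states in the response to Rnaseh1 was tested as an interaction. It was 0.05 (SE 1.31) for Wdr5, -0.52 (SE 0.65) for Rbbp5, -0.30 (SE 1.08) for Ash2l and 0.10 (SE 0.79) for Dpy30, with 0 genes called and 288 (2.26%) at an unadjusted limma p under 0.05. The 95% interval for Dpy30, -1.75 to 1.96, does not show that the states respond alike. Between SN and NSN mCherry controls the core genes differed by 0.43 (Wdr5), -0.18 (Rbbp5), 0.08 (Ash2l) and 0.01 (Dpy30), with 0 genes called and 328 (2.58%) at an unadjusted p under 0.05. Between SN and NSN oocytes with Rnaseh1 the values were 0.48, -0.71, -0.22 and 0.11, with 0 genes called and 584 (4.59%) at an unadjusted p under 0.05. Only Rbbp5 had non-overlapping libraries there, with lower values in SN, as did 12.5% of all genes.

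The catalytic subunits that the core serves fell with Rnaseh1 in the rescue set. All 4 that passed the filter were called lower, of 6 listed, as were 46.2% of all genes (median -2.23, against -0.52 over all genes). Kmt2d, which methylates enhancers, stood at 11.6 ± 0.11 TPM with mCherry and 0.57 ± 0.07 with Rnaseh1 (SD, n = 2; log2 fold change -3.01). Kmt2b, the enzyme of most oocyte H3K4 trimethylation, stood at 6.47 ± 1.13 and 0.47 ± 0.25 (-2.35). Setd1a stood at 5.86 ± 0.84 and 0.59 ± 0.27 (-2.11), and Kmt2c at 32.3 ± 5.47 and 19.0 ± 0.60 (-0.73). With Supt6 added all 4 were called higher than with Rnaseh1 alone, as were 41.6% of all genes (median 1.68, against 0.44), and 1 of 4 was called lower than with mCherry, as were 7.6% of all genes. Kmt2a and Setd1b were not tested, having too low values. Kmt2d, Kmt2b and Setd1a lay under 1 TPM with Rnaseh1 and passed the filter only through the other groups. That selection favours a lower call with Rnaseh1 and a higher call with Supt6 added. The counts and medians of this list are therefore partly set by the filter.

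Subunits that belong to single complexes went both ways, 5 higher and 5 lower of 12 with Rnaseh1, against 20.3% and 46.2% of all genes (median 0.11, against -0.52). Psip1, the chromatin tether of the MLL1 and MLL2 complexes, rose from 74.3 ± 3.92 to 294 ± 36.6 TPM (SD, n = 2; 1.96), while its partner Men1 fell from 28.6 ± 2.95 to 4.2 ± 0.41 (-2.51). In the SET1 complexes Bod1 rose from 108 ± 1.096 to 255 ± 24.7 TPM (1.23), and Cxxc1, which binds unmethylated CG, fell from 28.3 ± 0.71 to 11.2 ± 0.71 (-1.26). With Supt6 added, 4 were called higher and 4 lower than with Rnaseh1 alone, against 41.6% and 17.4% of all genes (median 0.05, against 0.44).

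The NSL and ATAC acetyltransferase complexes, which use WDR5 outside H3K4 methylation, were lower in most of their genes. Of 14 tested genes of 15 listed, 10 were called lower and 1 higher, against 46.2% and 20.3% of all genes (median -1.32, against -0.52). Kat8, the acetyltransferase of NSL, stood at -2.04, its partner Mcrs1 at -2.44, and the ATAC acetyltransferases Kat2a and Kat14 at -2.66 and -1.25. Kat2a averaged 0.685 TPM with Rnaseh1 and passed the filter through the other groups. That selection favours a lower call with Rnaseh1 and a higher call with Supt6 added. The counts and medians of this list are therefore partly set by the filter, and its genes not named here were not checked for this. With Supt6 added 11 were called higher and 1 lower than with Rnaseh1 alone, against 41.6% and 17.4% of all genes (median 0.97, against 0.44). Of 5 genes of H2B ubiquitination, which precedes H3K4 methylation, 2 were called lower with Rnaseh1 and 0 higher (median -0.03), a share of lower calls near the 46.2% of all genes. These were the ligase subunit Rnf40 at -2.79 and the conjugating enzyme Ube2a at -0.61. Its partner ligase Rnf20 stood at 0.25 and did not pass.

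The enzymes that remove H3K4 methylation were higher or did not pass. Of 5 genes, 3 were called higher and 0 lower with Rnaseh1, against 20.3% and 46.2% of all genes (median 0.58, against -0.52). They were Kdm5a at 1.44, Kdm5c at 1.45 and the oocyte enzyme Kdm1b at 0.58. Kdm1a stood at 0.28 and did not pass, and 4 of the 5 genes lay above 0. With Supt6 added 3 were called lower than with Rnaseh1 alone and 0 higher, against 17.4% and 41.6% of all genes (median -0.71, against 0.44). Against mCherry, 1 of the 5 was then called lower, Kdm5a at -0.86, and 0 higher, against 7.6% and 5.71% of all genes. In the NSN and SN comparisons 0 genes of these 5 lists were called by limma. Their medians with Rnaseh1 in SN oocytes (all genes -0.22) were -0.38 for catalytic subunits, 0.98 for demethylases and -0.48 for NSL and ATAC genes. Subunits of single complexes had a median of 0.035 there, and genes of H2B ubiquitination 0.39. In NSN oocytes (all genes -0.29) the medians were -0.17, 0.34, -0.52, -0.14 and -0.16 in that order. Among catalytic subunits in SN oocytes, Kmt2c, the most abundant of those tested, stood at 0.71, while Kmt2d, Kmt2b and Setd1a lay below 0. With mCherry there, Kmt2d stood at 1.07 ± 1.13 TPM, Kmt2b at 2.46 ± 1.53 and Setd1a at 1.57 ± 1.48 (SD, n = 2). Their signs and the list median thus rest on low values that differed widely between the control libraries.

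**Figure D5:**
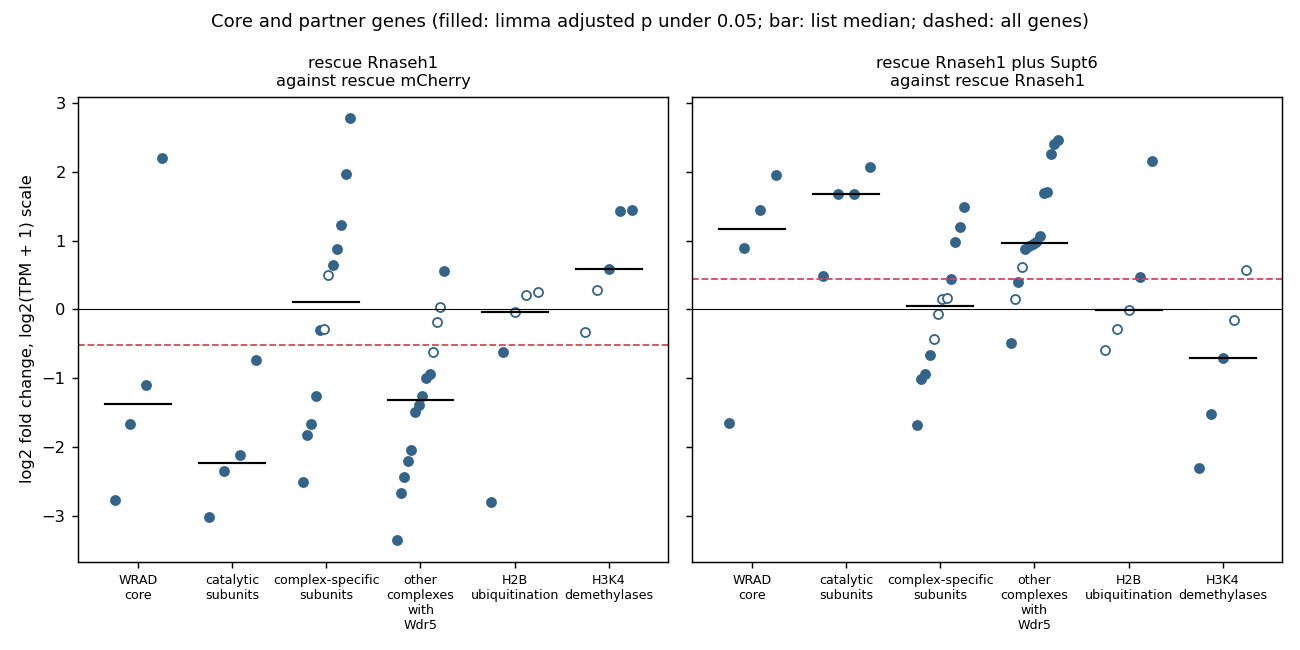
Log2 fold changes of the core genes and of 5 lists of related genes in the rescue set, for Rnaseh1 against mCherry (left) and Rnaseh1 plus Supt6 against Rnaseh1 (right); each point is a gene, filled where limma's adjusted p was under 0.05, bars are list medians and the dashed line the median of all genes. On the left the catalytic subunits lie below 0 with a median of -2.23, and the demethylases have a median of 0.58.

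Across the 14 libraries, each taken as a deviation from the mean of its table, Wdr5 and Rbbp5 had a Pearson r of 0.85, Wdr5 and Ash2l 0.85, and Rbbp5 and Ash2l 0.79. Dpy30 had an r of -0.96 with Wdr5, -0.92 with Rbbp5 and -0.85 with Ash2l. Among 6387 genes ordered from the highest r with a member, the others of Wdr5, Rbbp5 and Ash2l ranked between 1029 and 2075. Positive values of that size were thus common. In the order for Dpy30, Wdr5, Rbbp5 and Ash2l ranked between 4449 and 6042. Dpy30 itself ranked near the low end, at 6335 in the order for Wdr5, 6327 for Rbbp5 and 6131 for Ash2l. These points share libraries, treatments and the GC and length differences given above, so the values are a description. These genes averaged 5 TPM or more in both tables, and gene models with Gm or Rik symbols were left out. Among them, the profiles most like that of Dpy30 were those of Spa17 (r = 0.995), Fcf1 (0.993) and Mrps33 (0.992). Those most like Wdr5 were Atg14 (0.994), Ptbp1 (0.992) and Rnf220 (0.988), those most like Ash2l were Tbcc (0.992), Alad (0.987) and Rpap2 (0.986), and those most like Rbbp5 were Ablim1 (0.976), Dlst (0.963) and Haus4 (0.963). None of these nearest profiles was that of another core gene.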

How the data were processed

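The authors deposited TPM values, a length-corrected share of the mRNA, for 14 libraries in 2 tables, not counts. Per the submitters' processing notes, the tools were RSEM 1.3.3, STAR 2.7.0d, DESeq2 and Trim Galore 0.6.7 and the build was mm10, with no roles or settings given, so a count test was not run. Rows of the first table, Ensembl identifiers, were paired with symbols through GENCODE M21 (34611 of 35389). Its columns abbreviate mCherry and Rnaseh1 to m and R. Each table was fitted on its own over all its groups with limma 3.58.1 (R 4.3.3) on log2(TPM + 1), with moderated variances and a trend, for genes that reached 1 TPM in 2 or more libraries. P-values were two-sided and Benjamini-Hochberg adjusted over all genes tested, with a threshold of 0.05. Fold changes on this scale understate those of low genes. Near copies were searched with blastn 2.17.0.

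The members and lists were chosen with earlier results of these data known. The genes named were the members, the overexpressed genes, Wdr5b and up to 4 tested genes of each list. Those of the lists had the smallest p in the rescue comparison of Rnaseh1 with mCherry. Also named were the 3 genes nearest in profile to each member, among those averaging 5 TPM or more in both tables. Gene models, with symbols of Gm and a number or ending in Rik, were left out of that search. Alternatives were pseudocounts of 0.1 and 5, no filter or one of 5 TPM, centring on the median of genes that averaged 10 TPM or more, quantile normalization, a GC trend (spline with 5 degrees of freedom), a replicate block, robust variances, the compared groups alone, and leaving out each library.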

Additional observations from a re-analysis of the deposited data

How the results depend on the processing

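In the rescue set, the 4 calls for Rnaseh1 against mCherry and the 4 for the addition of Supt6 held their direction in every alternative run, and held the threshold in all but the following. Under quantile normalization Ash2l for Rnaseh1 against mCherry was -0.31 (adjusted p = 0.19) and Rbbp5 for the addition of Supt6 0.27 (adjusted p = 0.12). With GC and length trends removed, that Rbbp5 value was 0.30 (adjusted p = 0.10). For both genes against mCherry, Wdr5 ended without a filter (-0.82, adjusted p = 0.071), where 927 genes were called in place of 1711. The Dpy30 contrast kept its sign and was smaller under quantile normalization (3.20 for Rnaseh1 against mCherry and -2.33 for the addition of Supt6), with a pseudocount of 5 (3.80 and -2.86), with the GC trend removed (3.74 and -2.82) and with GC and length trends removed (2.87, -2.19 and, for both genes against mCherry, 0.68). For that last comparison, 42.9% of calls were higher, against 53.2% after median centring and 58.8% with the GC trend removed.

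In the NSN and SN set, values near 0 changed sign. For the interaction, Wdr5 was -0.073 with a pseudocount of 5, -0.038 after median centring and -0.11 after quantile normalization, and Dpy30 -0.034 with the GC trend and -0.064 with GC and length trends removed. Dpy30 for SN against NSN mCherry was -0.032 under quantile normalization. Each trend removal called 1 gene for Rnaseh1 in SN oocytes. Without both libraries that stood apart, an alternative chosen after the data were seen, the values for Rnaseh1 in NSN oocytes were 0.27 for Wdr5, -0.12 for Dpy30 and -0.13 for the contrast, and the interaction for Wdr5 was -0.31. For SN against NSN mCherry they were -0.56 for Wdr5, -0.82 for Ash2l and 1.03 for the contrast, and for SN against NSN Rnaseh1 -0.87 for Wdr5 and 2.02 for the contrast. Genes called were then 5 for Rnaseh1 in SN oocytes, 2 for the interaction and 338 for SN against NSN Rnaseh1. The cause of these changes was not tested.

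Leaving out 1 library at a time gave the following lowest and highest values. For Rnaseh1 in SN oocytes, where no call or direction changed, they were -2.04 to -0.039 for Wdr5, -1.39 to -0.75 for Rbbp5, -2.31 to -0.52 for Ash2l, 0.42 to 1.21 for Dpy30 and 0.86 to 3.12 for the Dpy30 contrast. Rbbp5 also kept its sign for Rnaseh1 in NSN oocytes (-1.04 to -0.058), the interaction (-1.01 to -0.034) and SN against NSN Rnaseh1 (-1.20 to -0.22), as did Ash2l for Rnaseh1 in NSN oocytes (-2.04 to -0.20). In the other comparisons, values are given where a call or a direction changed or the contrast moved by more than its spread between replicates. For Rnaseh1 in NSN oocytes these were -0.12 to 1.55 for Dpy30, -0.13 to 3.39 for the Dpy30 contrast, 0 to 1152 for genes called, 0 to 1 for core genes called and -2.44 to 0.27 for Wdr5. For the interaction these were -1.22 to 0.62 for Ash2l, -0.74 to 0.94 for Dpy30, -1.40 to 2.12 for the Dpy30 contrast, 0 to 1 for genes called and -1.31 to 1.40 for Wdr5. For SN against NSN mCherry these were -0.82 to 0.97 for Ash2l, -0.38 to 0.40 for Dpy30, -1.23 to 1.03 for the Dpy30 contrast, -0.50 to 0.14 for Rbbp5 and -0.56 to 1.43 for Wdr5. For SN against NSN Rnaseh1 these were -1.14 to 0.70 for Ash2l, -0.73 to 0.95 for Dpy30, -1.50 to 2.02 for the Dpy30 contrast, 0 to 112 for genes called and -0.87 to 1.84 for Wdr5. For both genes against mCherry in the rescue set these were 0.51 to 0.59 for Dpy30, 0.85 to 1.08 for the Dpy30 contrast, 85 to 320 for genes called, 0 to 1 for core genes called, -0.86 to -0.68 for Rbbp5 and -0.98 to -0.67 for Wdr5. For the addition of Supt6 to Rnaseh1 these were -3.19 to -2.96 for the Dpy30 contrast.

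The main fits did not pair libraries by replicate number. Deviations of same-numbered libraries correlated between -0.51 and 0.17 in the NSN and SN set and between -0.0005 and 0.04 in the rescue set. The value of -0.51 was between NSN Rnaseh1 and SN mCherry, the groups that hold the libraries that stood apart. With 2 libraries per group, these values cannot show whether same-numbered libraries shared an origin. With the replicate block the rescue comparisons called 8517, 1583 and 7535 genes, and the same core genes (Wdr5 for Rnaseh1 against mCherry -2.77, adjusted p = 3.3e-05). Depth is unknown, and 2 libraries per group limit the precision in both sets.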
